A study of Mus musculus with 10 samples.

Results

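The 10 genes described here are general and tissue-resident macrophage markers: Lyz2, C1qa, C1qb, C1qc, Adgre1, Mrc1, Cd163, Lyve1, Cd68 and Csf1r. They are the 10 rows with these symbols among 31285 genes in a deposited table of FPKM, which are fragment counts scaled by gene length and by library size. RNA was sequenced from inguinal (subcutaneous) white adipose tissue of 20-month-old mice, 5 libraries labelled Flox and 5 labelled GHR Knockdown. The series describes the second genotype as an adipose-specific knockout of Ghr, the growth hormone receptor gene, and it is called Ad-GHRKO here. All mice were fed regular chow ad libitum, and the labels used here name no strain, sex or Cre driver. Whether the samples were taken from separate animals is not stated in the labels, and p-values measure only the spread between these samples. The comparison asks whether transcripts typical of macrophages differ in level between the genotypes in old fat.

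Macrophages are the main phagocytes of fat, where they clear dead adipocytes, take up lipid and lie along vessels. Their survival depends on the receptor encoded by Csf1r, which binds the ligands CSF1 and IL-34. Lyz2 encodes the lysozyme of myeloid cells, Adgre1 a surface receptor that is the classic marker of mature mouse macrophages, and Cd68 a glycoprotein of late endosomes and lysosomes. C1qa, C1qb and C1qc encode the chains of complement C1q, which starts the classical pathway and binds dying cells. Mrc1 (the mannose receptor), Cd163 (the haemoglobin-haptoglobin receptor) and Lyve1 (a hyaluronan receptor) are typical of resident, perivascular macrophages, and Lyve1 is also a marker of lymphatic endothelium.

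The C1q genes lie side by side on chromosome 4 (GRCm38, minus strand), C1qb at 136880129 to 136886187, C1qc at 136889804 to 136893065 and C1qa at 136895917 to 136898803. They span 18675 bases together, with gaps of 3616 and 2851 bases between them. Lyz2 lies on chromosome 10 (117277331 to 117282321, minus strand), Adgre1 on chromosome 17 (57358691 to 57483527, plus) and Cd68 on chromosome 11 (69664213 to 69666153, minus). Mrc1 lies on chromosome 2 (14229392 to 14332057, plus), Cd163 on chromosome 6 (124304656 to 124330527, plus) and Lyve1 on chromosome 7 (110850607 to 110863239, minus). Lyz2 has a neighbour of near-identical sequence, Lyz1, whose annotated transcript is 92% identical to that of Lyz2 over 1317 aligned bases. Reads may have been split between these copies, so the values of Lyz2 are uncertain to that extent. Lyz1 had 25.1 ± 25.6 FPKM in the 5 Flox libraries and 21.5 ± 7.19 FPKM in the 5 Ad-GHRKO libraries (mean ± SD), far below Lyz2 in every library.

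Upstream sequences were found for 6 of the 10 genes in the RefSeq promoter table (GRCm38.p6). As examples 4 are printed, Cd68 as the one with the largest change, and the windows of C1qc and Cd163 are not printed. Capitals mark AGGAAGT, or ACTTCCT where it lies on the other strand, a core that is bound by ETS factors such as PU.1, the master regulator of myeloid cells. The motif was chosen after the sequences were seen, and a match is not evidence of binding. Each window starts at base -250 from the RefSeq transcription start and ends before the first annotated base of the gene in GENCODE or at base -1.
C1qb, chr4:136886201-136886450, minus strand: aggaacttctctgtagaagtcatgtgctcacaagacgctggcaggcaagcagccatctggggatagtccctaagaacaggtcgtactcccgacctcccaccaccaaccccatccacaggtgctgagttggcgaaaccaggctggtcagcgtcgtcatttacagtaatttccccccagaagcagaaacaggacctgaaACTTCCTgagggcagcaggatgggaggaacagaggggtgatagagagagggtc
Lyz2, chr10:117282322-117282522, minus strand: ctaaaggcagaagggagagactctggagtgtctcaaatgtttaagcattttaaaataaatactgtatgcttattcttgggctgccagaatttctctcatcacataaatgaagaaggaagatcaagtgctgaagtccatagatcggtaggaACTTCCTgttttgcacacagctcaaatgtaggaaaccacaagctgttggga
Mrc1, chr2:14229164-14229391, plus strand: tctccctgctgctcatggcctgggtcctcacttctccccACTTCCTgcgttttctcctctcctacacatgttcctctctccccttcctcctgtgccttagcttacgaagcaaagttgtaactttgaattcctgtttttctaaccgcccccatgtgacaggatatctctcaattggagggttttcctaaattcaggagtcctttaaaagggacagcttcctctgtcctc
Cd68, chr11:69666171-69666420, minus strand: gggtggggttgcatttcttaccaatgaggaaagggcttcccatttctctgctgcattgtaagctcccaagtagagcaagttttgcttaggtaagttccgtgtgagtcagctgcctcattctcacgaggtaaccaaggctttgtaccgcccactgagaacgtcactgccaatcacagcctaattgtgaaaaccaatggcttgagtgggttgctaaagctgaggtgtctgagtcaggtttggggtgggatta
The motif began at base -53 in C1qb, -100 in Lyz2 and -211 in Mrc1, each time on the reverse strand. It was also in the C1qc window at base -195, there as the longer GAGGAAGT that contains it, and in neither the Cd68 nor the Cd163 window. Of the 6 windows of 250 bases, 4 held AGGAAGT on either strand, where 7.69% of all 32851 windows of the table held it. GAGGAAGT was in 1 of the 6 and in 2.44% of all windows.

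Ghr, which checks the labels, had a mean of 93.5 ± 21.9 FPKM over the Flox libraries and of 16.6 ± 2.71 FPKM over the knockout libraries (SD, n = 5), without overlap. Library totals implied by the scaling of the FPKM values came to 14615000 to 19269000 reads. Skeletal muscle transcripts (25 genes) made up 18.9% of reads in Ad-GHRKO 1, 10.7% in Flox 5 and 7.42% in Flox 3, against 0.25% in Ad-GHRKO 5 and 0.0201% or less in the others. Adipocyte markers were abundant in every library, with a summed level of 6365 to 9933 FPKM over 8 genes in Flox and 3262 to 9271 FPKM in Ad-GHRKO, the lowest in Ad-GHRKO 1. In Flox 3, Flox 5 and Ad-GHRKO 1 the summed muscle level, at 26290, 40550 and 70150 FPKM, was above that of the adipocyte genes. Of the 8 adipocyte genes and the 7 muscle genes tested, 0 passed the limma test. At an unadjusted limma p under 0.05, 4 and 0 passed, against 16.4% of all genes. Of these 4, Adipoq, Pparg and Pnpla2 were lower in Ad-GHRKO and Lep was higher. Of 12785 genes tested with limma on log2(FPKM + 1), 280 (2.19%) passed a Benjamini-Hochberg adjusted p of 0.05, with 35.4% of them higher in Ad-GHRKO. Under TPM rescaling 60.3% were higher, and the median over all genes shifted from 0.04 to 0.15 in log2.

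None of the 10 macrophage markers passed the test in either direction, against 2.19% of all genes tested, and no marker had its genotypes fully apart, against 4.97% of all genes (1.62% apart and higher, 3.35% apart and lower). The log2 changes on the log2(FPKM + 1) scale (Ad-GHRKO minus Flox) ran from 0.11 for C1qa to 1.08 for Cd68, with a median of 0.42 where the median of all genes was 0.04. Without Flox 2 the median of the markers was 0.20 and without Flox 5 it was 0.23, and without Ad-GHRKO 4 it was 0.24. All 10 were above 0, as were 55.7% of all genes tested. These genes vary together, so the 10 signs are not independent, and the signs of C1qa and Cd163 turned when single libraries were left out. At an unadjusted limma p of 0.05, 1 marker passed, Cd68, higher in Ad-GHRKO (16.4% of all genes passed so, 7.86% higher). Limma voom on recovered reads gave the same counts for the markers, 0 after adjustment, where 2.16% of all genes passed, and 1 before. In bulk tissue, a different number of macrophages and a different amount of RNA per macrophage cannot be told apart.

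**Figure D1:**
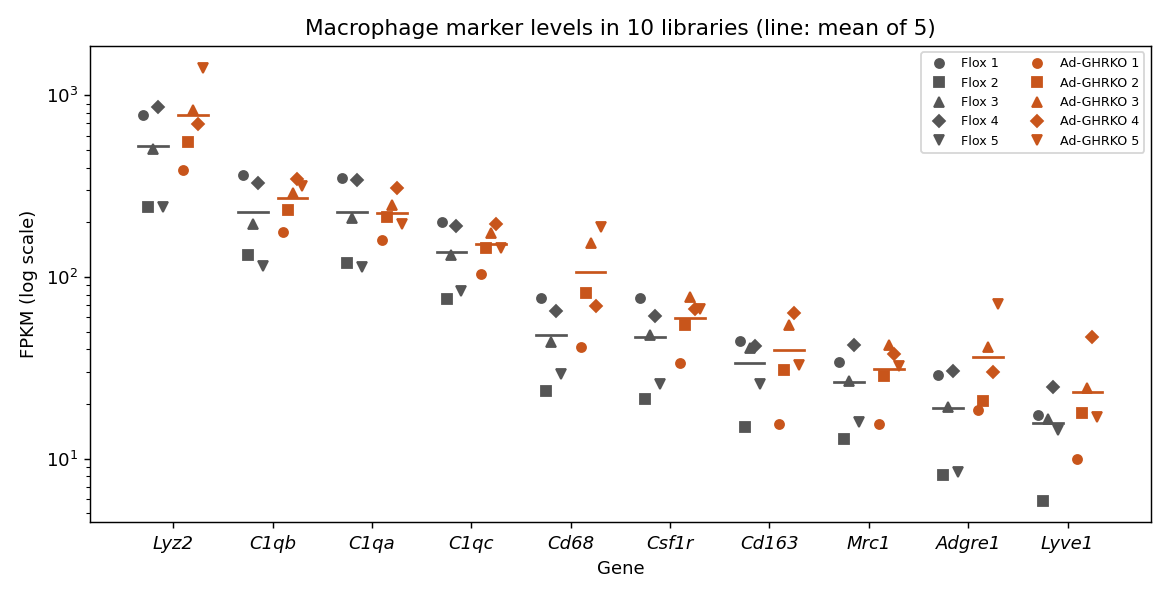
Level of each macrophage marker in FPKM (vertical axis, log scale) in every library, with genes on the horizontal axis ordered by mean level. Grey symbols are Flox and orange symbols Ad-GHRKO libraries 1 to 5, and lines are means of 5. The genotypes overlap for all 10 genes, and Flox 2 and Flox 5 are the lowest grey points for each.

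The order of the levels in FPKM, which are scaled by gene length, was led by Lyz2 and the C1q chains. Over all 10 libraries the means ran from 651 ± 352 FPKM for Lyz2 to 226 ± 85.5 for C1qa and 144 ± 46.0 for C1qc (SD over 10 libraries), with C1qb between Lyz2 and C1qa. Cd68 and Csf1r followed at 77.0 ± 53.5 and 53.1 ± 20.4 FPKM, then Cd163 at 36.4 ± 15.7, Mrc1 at 28.8 ± 11.0, Adgre1 at 27.7 ± 18.3 and Lyve1 at 19.5 ± 11.1 FPKM. Within libraries, Lyz2 was above C1qb in 10 of 10 and C1qa above C1qc in 10 of 10. The other neighbours in this order exchanged places in 1 or 2 of the 10 libraries, and Mrc1 and Adgre1 differed by less than their spread. Each marker rested on at least 306 reads in every library (Lyve1 in its lowest library), and on up to 27285 (Lyz2).

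Lyz2, the most abundant marker, was at 774, 244, 505, 859.9 and 242 FPKM in Flox 1 to 5, and at 387, 551, 831, 698 and 1419 FPKM in Ad-GHRKO 1 to 5. The genotypes overlapped, with Flox 2 and Flox 5 low and Ad-GHRKO 5 above all others. The log2 change was 0.63 (SE 0.44, 95% interval -0.34 to 1.60, limma adjusted p = 0.537, exact permutation p = 0.246). Neutrophils also express Lyz2, and of 10 neutrophil genes 6 fell under the filter of 1 FPKM in 5 libraries. Their summed level was 7.60 to 23.8 FPKM over Flox libraries and 6.56 to 19.8 FPKM over those of Ad-GHRKO. S100a9, the calgranulin with the smallest p of that list, had a log2 change of -1.06 (limma adjusted p = 0.286). The part of neutrophils in the Lyz2 level was not tested.

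Cd68 had the largest log2 change of the 10. It was at 76.3, 23.6, 43.8, 64.9 and 29.3 FPKM in Flox 1 to 5, and at 41.4, 81.6, 153, 68.9 and 188 FPKM in Ad-GHRKO 1 to 5. Ad-GHRKO 2, 3 and 5 lay above every Flox library, while Ad-GHRKO 1 and 4 lay within the Flox range. The log2 change was 1.08 (SE 0.43, 95% interval 0.13 to 2.03, limma adjusted p = 0.244, unadjusted 0.0298), and the exact two-sided permutation p was 0.0635, where 5 against 5 libraries can reach 0.00794. Leaving out Ad-GHRKO 1, the library richest in muscle transcripts, gave 1.36 and an adjusted p of 0.0589, the lowest for any marker among 23 alternatives. With a skeletal muscle score as covariate the log2 change was 1.02 (limma adjusted p = 0.172), and without Flox 3, Flox 5 and Ad-GHRKO 1 it was 1.19 (adjusted p = 0.170).

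Adgre1 showed the next largest change. It was at 28.95, 8.17, 19.3, 30.3 and 8.45 FPKM in Flox 1 to 5, and at 18.6, 20.75, 41.3, 29.96 and 70.75 FPKM in Ad-GHRKO 1 to 5. Ad-GHRKO 3 and 5 lay above every Flox library and the other 3 within the Flox range, and no Ad-GHRKO library fell as low as Flox 2 or Flox 5. The log2 change was 0.92 (SE 0.44, 95% interval -0.05 to 1.89, limma adjusted p = 0.339, exact permutation p = 0.143).

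The C1q chains had some of the smallest changes. C1qa was at 349.6, 119, 212, 343 and 113 FPKM in Flox 1 to 5 and at 160.1, 214, 248, 307 and 196 FPKM in Ad-GHRKO 1 to 5. All 5 Ad-GHRKO libraries lay inside the range of Flox, whose highest library was 3.08 times its lowest, against 1.92 times in Ad-GHRKO. The Flox mean was 228 ± 115 FPKM and the Ad-GHRKO mean 225 ± 55.8 FPKM (SD, n = 5 libraries each), with a log2 change of 0.11 (SE 0.34, 95% interval -0.64 to 0.87, limma adjusted p = 0.910). As a fold, that interval runs from 0.642 to 1.83, so a change of that size in either direction is not excluded by these libraries. C1qb was at 227 ± 114 and 273 ± 68.1 FPKM (log2 change 0.38, SE 0.34, adjusted p = 0.644) and C1qc at 137 ± 58.4 and 152 ± 34.8 FPKM (log2 change 0.23, SE 0.30, adjusted p = 0.759). Levels of the chains kept close proportions: C1qb was 0.916 to 1.11 times C1qa in Flox and 1.09 to 1.62 times in Ad-GHRKO, where Ad-GHRKO 5 held the 1.62 and the other 4 libraries held at most 1.18. C1qc was 0.556 to 0.736 times C1qa in Flox and 0.634 to 0.736 times in Ad-GHRKO.

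Csf1r (chromosome 18, 61100598 to 61132149, plus strand), the receptor on which macrophages depend, was at 76.4, 21.2, 48.1, 61.3 and 25.6 FPKM in Flox 1 to 5 and at 33.4, 54.6, 77.8, 66.4 and 66.2 FPKM in Ad-GHRKO 1 to 5. The genotypes overlapped, with a log2 change of 0.46 (SE 0.35, 95% interval -0.32 to 1.24, limma adjusted p = 0.579). The end of Csf1r overlaps Hmgxb3 on the other strand, whose mean level was 2.63 FPKM, and whether strand was used in counting is not stated. Of its ligands, Csf1 was at 22.5 ± 9.02 and 31.4 ± 13.9 FPKM (log2 change 0.42, adjusted p = 0.560) and Il34 at 13.5 ± 2.81 and 12.25 ± 4.38 FPKM (log2 change -0.19, adjusted p = 0.776). Csf2ra, a receptor subunit for the related cytokine GM-CSF, was at 17.9 ± 5.85 and 28.0 ± 7.59 FPKM (log2 change 0.63, limma adjusted p = 0.236). Of the 6 genes of this list, 5 were tested, 0 passed in either direction and 1 (Csf2ra) had an unadjusted limma p under 0.05, and Csf2 was listed at 0 in 8 of 10 libraries.

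The resident markers Mrc1, Cd163 and Lyve1 gave no call in either direction. Mrc1 was at 34.1, 12.85, 26.6, 42.3 and 15.8 FPKM in Flox 1 to 5 and at 15.5, 28.5, 41.9, 37.75 and 32.3 FPKM in Ad-GHRKO 1 to 5 (log2 change 0.29, SE 0.34, 95% interval -0.46 to 1.05, limma adjusted p = 0.736). Cd163 was at 44.6, 14.85, 40.8, 41.4 and 25.65 FPKM in Flox and at 15.6, 30.9, 54.0, 63.5 and 32.9 FPKM in Ad-GHRKO (log2 change 0.18, SE 0.39, 95% interval -0.68 to 1.03, adjusted p = 0.870). Both overlapped between the genotypes, with Flox 2 and Ad-GHRKO 1 low for each. Lyve1 was at 17.3, 5.87, 16.6, 24.8 and 14.4 FPKM in Flox and at 9.90, 17.9, 24.5, 46.5 and 16.9 FPKM in Ad-GHRKO, with 4 of 5 Ad-GHRKO libraries inside the Flox range and Ad-GHRKO 4 above it. Its log2 change was 0.47 (SE 0.41, 95% interval -0.42 to 1.36, limma adjusted p = 0.630).

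Lyve1 can also come from lymphatic vessels, whose genes were low in these libraries. Prox1, the transcription factor that defines lymphatic endothelium, averaged 0.0925 ± 0.0235 FPKM in Flox libraries and 0.143 ± 0.0722 FPKM in those of Ad-GHRKO. Of 6 lymphatic genes, 2 passed the filter and 0 passed the test (0 also at an unadjusted limma p of 0.05). Their summed level was 3.20 to 8.11 FPKM over Flox libraries and 3.03 to 11.7 FPKM over those of Ad-GHRKO, and Flt4, a vascular growth factor receptor and the most abundant, had a log2 change of 0.31 (limma adjusted p = 0.410). Ad-GHRKO 4, with the highest Lyve1, had a lymphatic sum of 5.58 FPKM, and the part of lymphatic vessels in the Lyve1 level was not tested.

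**Figure D2:**
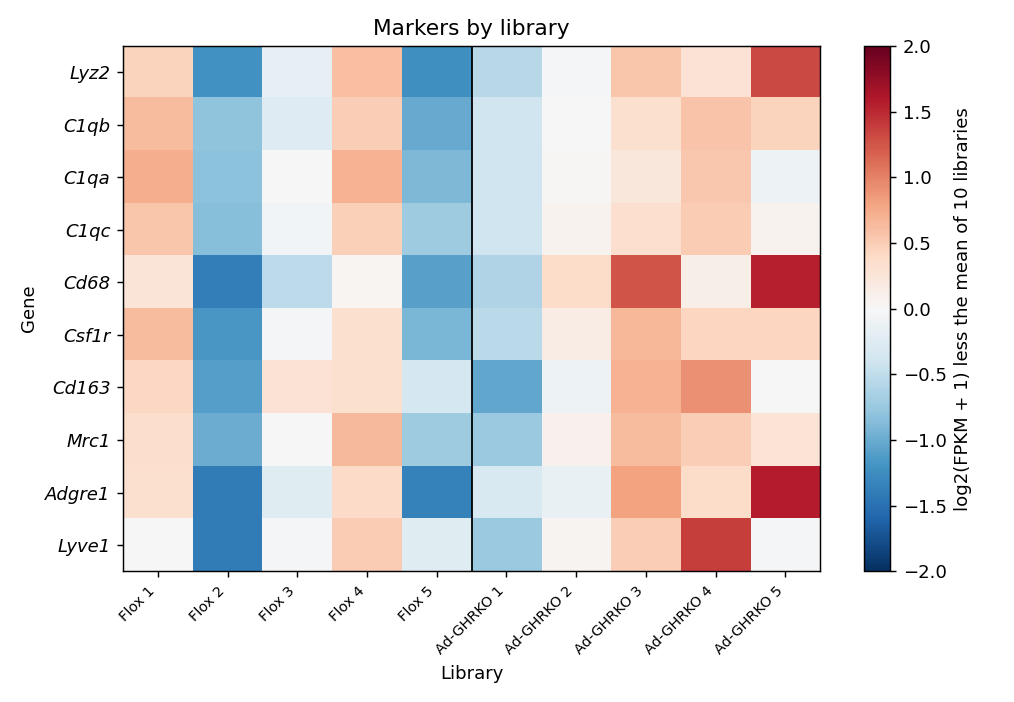
Deviation of each marker (rows, ordered by level) in each library (columns) from its mean over 10 libraries, on the log2(FPKM + 1) scale, red above and blue below. Flox 2, Flox 5 and Ad-GHRKO 1 lie below the mean (blue) for every marker. Flox 1, Flox 4, Ad-GHRKO 3 and Ad-GHRKO 4 lie above it (red) for every marker. Flox 1 is only just above it for Lyve1, and Flox 4 for Cd68.

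The markers varied together from library to library. Flox 2 and Flox 5 were the lowest 2 Flox libraries for all 10 genes, Flox 1 and Flox 4 the highest 2 for all 10, and Ad-GHRKO 1 the lowest Ad-GHRKO library for all 10. The highest Ad-GHRKO library was Ad-GHRKO 4 for 5 genes, Ad-GHRKO 5 for 3 (Lyz2, Adgre1 and Cd68) and Ad-GHRKO 3 for 2 (Mrc1 and Csf1r). The summed level of the 10 was 1966, 658, 1239, 1988 and 674 FPKM in Flox 1 to 5 and 961, 1377, 1937, 1859 and 2483 FPKM in Ad-GHRKO 1 to 5. Of the low libraries, Flox 5 and Ad-GHRKO 1 held 10.7% and 18.9% of reads on the muscle list and Flox 2 held 0.0189%, and the part of muscle transcripts in this pattern was not tested. The spread within a genotype on the log2(FPKM + 1) scale had a median SD of 0.68 over the 10 markers, from 0.52 to 0.82, where the median over all genes tested was 0.29. The standard error of the change was accordingly 0.37 at the median of the markers and 0.18 at the median of all genes.

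After each genotype's mean was subtracted, the 45 pairs of markers had a median Pearson r of 0.86 over the 10 libraries (Spearman rho 0.79 at the median), and 0.74 without Flox 2 and Ad-GHRKO 1, the libraries farthest from the median. These are descriptions, and all pairs share their libraries. The closest pairs were Lyz2 with Adgre1 (r = 0.989, rho = 0.988, and r = 0.987 without the same 2 libraries) and C1qa with C1qc (r = 0.986, rho = 0.976, and r = 0.995). The least alike were Lyve1 and Cd68 (r = 0.465, rho = 0.394), whose r was -0.217 without those 2 libraries, so that relation rested on them. Lyz2, Adgre1 and Cd68 peaked in Ad-GHRKO 5, where Lyve1 was near its median, and Lyve1 peaked in Ad-GHRKO 4, where Cd68 was among the lower Ad-GHRKO values.

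Among other genes with a mean of at least 2 FPKM, the 6 whose deviations were most like the mean of the 10 markers were Klhl6 (r = 0.984), Inpp5d (0.983), Plcg2 (0.981), Selplg (0.977), Ctsh (0.977) and Sdc3 (0.976), each over 10 libraries. Inpp5d encodes a lipid phosphatase of blood cells, Plcg2 a phospholipase of immune receptor signalling and Ctsh a lysosomal protease. Their limma adjusted p ran from 0.473 (Sdc3) to 0.895 (Ctsh). For single markers, the closest gene was Irf5 for Lyz2 (r = 0.993), C1qc for C1qa, Lrrc25 for C1qb (0.979), Cd209g for C1qc (0.992), Ly9 for Adgre1 (0.990) and Myo1f for Cd68 (0.987). It was Sdc3 for Csf1r (0.986), Slc9a9 for Mrc1 (0.983), Kdm5c for Cd163 (0.963) and Lmnb2 for Lyve1 (0.945, with rho 0.733). Irf5 is a transcription factor of macrophage activation and Cd209g a lectin receptor gene of the resident list.

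**Figure D3:**
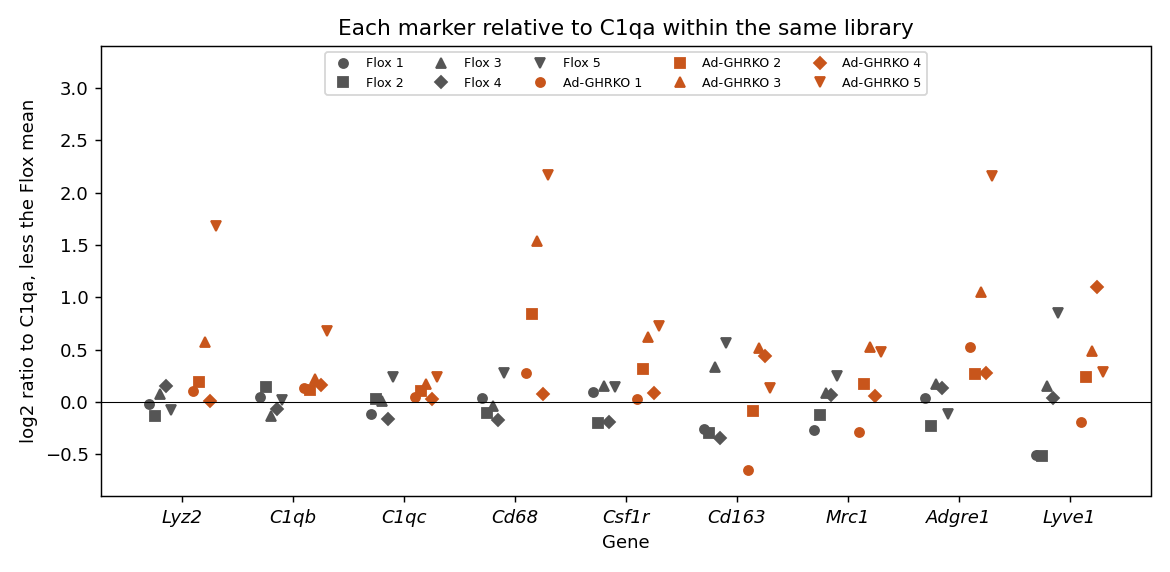
Log2 ratio of each marker to C1qa in the same library, less the mean of the Flox libraries (vertical axis), for the other 9 markers (horizontal axis). Grey symbols are Flox and orange symbols Ad-GHRKO. For Adgre1 all Ad-GHRKO points lie above all Flox points, and Ad-GHRKO 5 is highest for Lyz2, C1qb, Cd68, Csf1r and Adgre1.

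Proportions among the markers within a library do not depend on how the library was scaled. Adgre1 was 0.0828, 0.0686, 0.0911, 0.0884 and 0.0745 times C1qa in Flox 1 to 5 and 0.116, 0.0969, 0.167, 0.0974 and 0.36 times in Ad-GHRKO 1 to 5. Every Ad-GHRKO library thus lay above every Flox library, though Ad-GHRKO 2 and 4 by little, and this was the only 1 of 45 pairs of markers with the genotypes apart. The pair was singled out after its values were seen and was not tested. Cd68 was 0.189 to 0.259 times C1qa in Flox and 0.224 to 0.956 times in Ad-GHRKO, and Lyz2 was 2.05 to 2.51 times C1qa in Flox and 2.27 to 7.23 times in Ad-GHRKO. Both ranges overlapped, and both maxima were in Ad-GHRKO 5. Adgre1 relative to Lyz2 was steadier, at 0.0335 to 0.0383 in Flox and 0.0376 to 0.0499 in Ad-GHRKO.

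The level of the resident markers relative to the other 7 overlapped between the genotypes, and a difference was not tested. The mean log2 level of Mrc1, Cd163 and Lyve1 less that of the other 7 markers was -2.11 ± 0.33 in Flox and -2.34 ± 0.47 in Ad-GHRKO (SD, n = 5 each). The libraries interleaved, from -2.47 in Flox 1 to -1.63 in Flox 5 and from -2.91 in Ad-GHRKO 5 to -1.67 in Ad-GHRKO 4. Lyve1 relative to Mrc1 was 0.457 to 0.909 in Flox and 0.523 to 1.23 in Ad-GHRKO, with the highest value in Ad-GHRKO 4.

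Further genes of resident macrophages gave no call. Of 16 such genes (among them Timd4, Folr2, Cd209f, F13a1, Pf4, Clec10a and Mgl2), 15 were tested, 0 passed in either direction and 0 had an unadjusted limma p under 0.05, with a median log2 change of 0.05 and 9 of 15 above 0. Vsig4, a complement receptor with the smallest p of the list, was at 3.73 ± 2.46 and 6.29 ± 2.61 FPKM (log2 change 0.68, limma adjusted p = 0.464). Selenop, a secreted selenoprotein and the most abundant, was at 327 ± 98.0 and 477 ± 192 FPKM (log2 change 0.49, adjusted p = 0.507). Cd209f, a lectin of perivascular macrophages, was at 46.1 ± 23.0 and 41.1 ± 13.1 FPKM (log2 change -0.07, adjusted p = 0.946), and Timd4, a receptor for dying cells, at 2.60 ± 1.32 and 2.84 ± 1.86 FPKM (log2 change 0.06, adjusted p = 0.952), both named after their values were seen.

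Of 20 other macrophage genes, 19 were tested and 0 passed, 5 had an unadjusted limma p under 0.05, all higher in Ad-GHRKO (7.86% of all genes), and the median log2 change was 0.49. Under 7 of the 23 alternatives 1 to 3 of these genes passed, 3 of them without Ad-GHRKO 1 and 1 without Flox 1. Ctss, the lysosomal protease cathepsin S and the most abundant of the list, was at 61.4 ± 39.0 and 157 ± 120 FPKM (log2 change 1.30, adjusted p = 0.254).

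Partners of C1q gave no call either, though 1 passed as lower under 3 of the 23 alternatives. The list of 7 held genes of the classical complement pathway and Cd93. All 7 were tested and 0 passed. An unadjusted limma p under 0.05 was found for 2 (16.4% of all genes), C2 lower (log2 change -0.59) and Cd93 higher. The median log2 change was -0.34. Cd93, once described as a C1q receptor and expressed by endothelium and myeloid cells, was at 12.1 ± 3.65 and 19.9 ± 6.50 FPKM (log2 change 0.67, adjusted p = 0.213). C3, the central complement component, was at 460 ± 208 and 326 ± 113 FPKM (log2 change -0.45, adjusted p = 0.574).

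**Figure D4:**
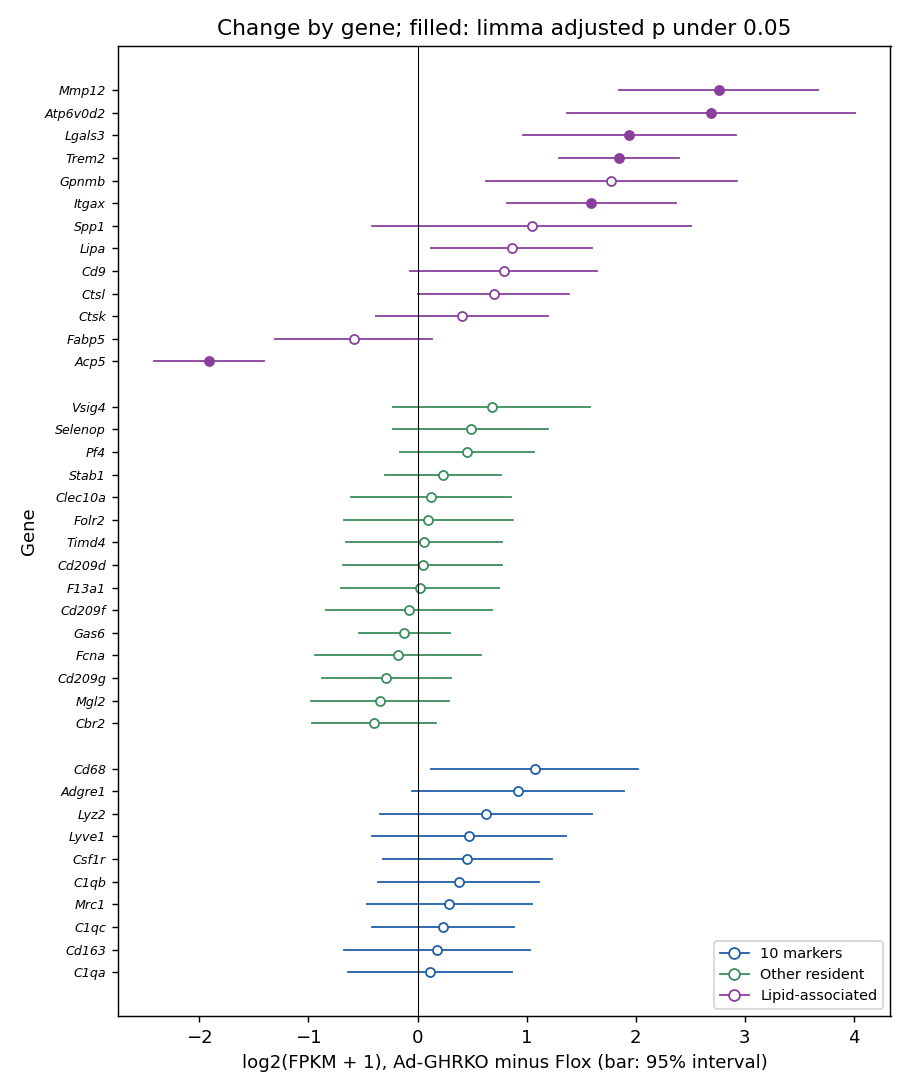
Log2 change on the log2(FPKM + 1) scale, Ad-GHRKO minus Flox (horizontal axis), with 95% intervals from limma, for the 10 markers (blue), 15 tested genes of resident macrophages (green) and 13 of lipid-associated macrophages (purple). Filled points passed an adjusted p of 0.05, 5 of the purple genes above 0 and Acp5 below, and no blue or green gene.

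Genes of lipid-associated macrophages, the TREM2-dependent state that gathers around dying adipocytes, are given for comparison. Of 13 genes, all tested, 5 rose and 1 fell in Ad-GHRKO, where 0.774% of all genes rose and 1.42% fell, and the median log2 change was 1.05. Mmp12 and Atp6v0d2 reached 1 FPKM in the Ad-GHRKO libraries alone and so passed the filter through the group where they were high. Trem2 and Itgax reached 1 FPKM in every Ad-GHRKO library but not in every Flox library, and needed the Ad-GHRKO libraries to pass. With no filter 2 genes of the list rose, Trem2 and Mmp12. With a filter of 5 FPKM 1 did, Lgals3, but Trem2, Mmp12, Itgax and Atp6v0d2 did not reach that filter and were not tested there. This list was chosen with earlier results of these data known, and that its changes exceed those of the 10 markers was not tested. Trem2, a lipid receptor, was at 1.54, 0.340, 1.16, 0.941 and 0.435 FPKM in Flox 1 to 5 and at 3.26, 5.996, 7.37, 4.19 and 8.58 FPKM in Ad-GHRKO 1 to 5, with the genotypes apart (log2 change 1.85, SE 0.25, limma adjusted p = 0.00394). Mmp12, the macrophage metalloelastase, rose from 0.105 ± 0.0532 to 8.67 ± 8.68 FPKM (adjusted p = 0.00747), with a log2 change of 2.76. The changes of these low genes depended on the pseudocount. At 0.1 they were 4.997 for Mmp12, 2.69 for Trem2, 2.16 for Itgax and 3.94 for Atp6v0d2. Acp5, tartrate-resistant acid phosphatase, was 146 ± 23.2 FPKM in Flox and fell to 39.5 ± 13.4 FPKM, with the genotypes apart (log2 change -1.92, adjusted p = 0.00220).

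The other 3 genes that rose were Lgals3, the lectin galectin-3, Itgax, an integrin chain, and Atp6v0d2, a proton pump subunit, with adjusted p of 0.0488, 0.0447 and 0.0465. Each call ended when single libraries were left out: that of Lgals3 without any library but Ad-GHRKO 1 (limma adjusted p up to 0.129), that of Itgax without Flox 1 to 5 or Ad-GHRKO 2, 3 or 5 (up to 0.118) and that of Atp6v0d2 without Flox 1 to 5 or Ad-GHRKO 2, 3 or 4 (up to 0.123). Lgals3 was at 54.8, 40.0, 30.4, 63.3 and 42.2 FPKM in Flox 1 to 5 and at 78.4, 149, 273, 102 and 498 FPKM in Ad-GHRKO 1 to 5. Ad-GHRKO 5 was the highest library for Trem2, Mmp12, Lgals3, Itgax and Atp6v0d2, with Ad-GHRKO 3 the next, and it was also the highest for Lyz2, Cd68 and Adgre1.

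Markers of other blood and vessel cells gave no call, though 1 monocyte gene passed as lower under 3 of the 23 alternatives, 1 of them without Flox 5. Of 6 monocyte genes 4 were tested, with 0 past the test, 1 at an unadjusted limma p under 0.05 (Ly6c2, log2 change -0.62) and 0 of 4 above 0. Their summed level was 43.1 to 179.9 FPKM over Flox libraries and 39.0 to 74.0 FPKM over those of Ad-GHRKO. Of 8 dendritic cell genes 3 were tested, of 12 B and T cell genes 5 and of 8 blood endothelial genes 8, and 0 passed, also at an unadjusted limma p of 0.05. The summed dendritic cell level was 26.3, 11.8, 15.2, 23.6 and 10.4 FPKM in Flox 1 to 5 and 11.0, 16.7, 19.1, 17.5 and 15.2 FPKM in Ad-GHRKO 1 to 5. It was lowest in Flox 5, Ad-GHRKO 1 and Flox 2, as the summed marker level was in these 3 libraries, but highest in Flox 1 and not in Ad-GHRKO 5. The part of these cells in the marker levels was not tested.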

How the data were processed

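Gene expression was measured in 10 libraries of mouse inguinal white adipose tissue, 5 Flox and 5 Ad-GHRKO, grouped by the genotype in the labels. Polyadenylated RNA was selected, per the labels' protocols, and the second strand was marked. The authors deposited 1 table of FPKM values, 1 column per library, per the file headers. Which aligner and counting tool were used, and whether by strand, is not given in the sources used here. GRCm39 is named in the submitters' processing notes, but 99.54% of 31253 shared gene identifiers had the GRCm38 coordinates of GENCODE M21, so GRCm38 is used.

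Genes that reached 1 FPKM in 5 or more libraries entered limma 3.58.1 (R 4.3.3). The two-sided fit used log2(FPKM + 1), with a mean-variance trend and Benjamini-Hochberg adjustment over all 12785 genes. FPKM is relative to the library total, and the pseudocount understates changes of low genes. Single markers were also compared by exact permutation over 252 assignments. FPKM times exon length gave whole reads, within 0.01, for 99.24% to 99.32% of values. These reads served a voom fit, 1 of 23 alternatives. The members and lists were chosen with earlier results of these data known.

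Named genes are the 10 markers, Ghr, up to 3 called genes (or the 1 with the smallest p) and the most abundant gene of a list, and the genes most like the markers in pattern. Genes the rule gives from the lists of neutrophils, monocytes, dendritic cells, B and T cells, blood endothelium, adipocytes, epithelium and muscle are not all named. One gene of the other macrophage genes that the rule gives is not reported here. Il34, C2, Cd209f, Timd4, Itgax, Atp6v0d2, Csf2, Prox1, Lyz1, Adipoq, Pparg and Pnpla2 were added after their values were seen. Of 6 epithelial genes 0 passed the filter (sum 0.179 to 4.46 FPKM). Python 3.11.15 with pandas 2.3.3, scipy 1.17.1 and matplotlib 3.10.9 was used for tables, permutation tests and plots.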

Additional observations from a re-analysis of the deposited data

How the results depend on the processing

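The count of markers called was 0 higher and 0 lower under all 23 alternatives: pseudocounts (0.1, 0.5), filters (none, 5 FPKM), scalings (TPM, quantile, median ratio), the replicate block, the skeletal muscle score as covariate, leaving out the 3 muscle-rich libraries (Flox 3, Flox 5 and Ad-GHRKO 1), array weights, a robust prior, voom on recovered reads and leaving out each library. The lowest adjusted p of any marker was 0.0589. Every marker but C1qa and Cd163 kept a positive log2 change throughout. C1qa had -0.029 without the 3 muscle-rich libraries, and leaving out single libraries it ran from -0.094 (Flox 5) to 0.31 (Flox 1), with -0.077 without Flox 2 and -0.006 without Ad-GHRKO 4. Cd163 ran from -0.076 (Flox 2) to 0.462 (Ad-GHRKO 1), with -0.028 without Ad-GHRKO 4. The cause was not tested. The median log2 change of the markers ran from 0.20 without Flox 2 and 0.23 without Flox 5 to 0.59 without Ad-GHRKO 1. Same-numbered deviations correlated at -0.489, 0.394, -0.0339, 0.28 and -0.259 across genes, and not every sample correlated best with its own number. The highest value, 0.655, joined Flox 5 and Ad-GHRKO 1, both muscle-rich, so these correlations cannot decide whether replicate numbers pair the samples. With the replicate block 0 markers and 85 genes (against 280) were called. Over all genes the count ran from 85 to 1695 (array weights). It was 117 with no filter, 547 with median ratio scaling, 565 with quantile normalization, 823 with the muscle covariate, 777 without the 3 muscle-rich libraries and 116 to 1185 leaving out single libraries. The number of lipid-associated genes called higher fell from 5 to between 1 and 3 under 13 alternatives, and was 7 without Ad-GHRKO 1. Under the filter of 5 FPKM, Trem2, Mmp12, Itgax and Atp6v0d2 were not tested. Other macrophage genes gained 1 to 3 calls higher under 7 alternatives (the 3 scalings, the muscle covariate, array weights, without Flox 1, without Ad-GHRKO 1). C1q partners gained 1 lower under the muscle covariate, array weights and without the 3 muscle-rich libraries. Monocyte genes gained 1 lower under array weights, without these 3 and without Flox 5. Adipocyte genes gained 1 higher under 4 alternatives and 1 lower under 4. No marker had a library far outside its group by Dixon's test at 5 libraries, in 20 groups. Each marker had 306 reads or more in every library.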
